A study of Mus musculus with 6 samples.

Results

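The clustered protocadherins are cell-surface recognition proteins encoded by 3 gene clusters, alpha, beta and gamma, that lie side by side on mouse chromosome 18. Their members were taken by gene symbol: the numbered genes of the Pcdha, Pcdhb, Pcdhga and Pcdhgb series and the C-type genes Pcdhac1, Pcdhac2, Pcdhgc3, Pcdhgc4 and Pcdhgc5. Of 18160 genes in the expression table, 58 were members, with 14 in the alpha cluster, 22 in the beta cluster and 22 in the gamma cluster. The rule itself uses symbols alone, although the family was picked with earlier results of these data known.

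RNA sequencing had been made from the prefrontal cortex of adult C57BL/6J mice at postnatal day 56. The groups were 3 samples heterozygous for Cyfip2 (HET) and 3 wild-type samples (WT). Cyfip2 belongs to the WAVE regulatory complex, a machine for branching actin at the membrane. The labels do not describe the mutant allele, and they do not say whether each sample came from a separate animal, so the p-values given here measure only the spread between these samples. Levels were the authors' normalized counts, whose sums per sample lay between 36396022 and 37121421. Differences between genotypes were tested with limma on log2(normalized count + 1) over the 15151 genes with a mean of at least 10, with Benjamini-Hochberg adjustment over all of them and a threshold of 0.05. Fold changes are on that log2 scale, as HET minus WT, and errors on means are SDs of 3 samples.

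Each clustered protocadherin gene of the alpha and gamma clusters has a variable first exon of its own, which carries the extracellular and transmembrane parts, spliced to constant exons that are common to the cluster. Beta genes stand alone and lack constant exons. In single neurons the alternate isoforms are switched on in random combinations through promoter choice that involves the insulator protein CTCF, cohesin and DNA methylation, while C-type isoforms are expressed more uniformly. The proteins bind to themselves across membranes, and in mice they are known for giving neurons an individual surface identity, for self-avoidance of dendrites and axons, and for neuronal survival. Intracellularly they meet kinases of the focal adhesion family and the actin regulators to which Cyfip2 belongs.

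All 3 clusters run on the plus strand of GRCm38. The alpha cluster spans chr18:36930184-37187661, the beta cluster chr18:37264938-37524479 and the gamma cluster chr18:37661793-37841873. In the GENCODE annotation, 3 exons at the 3' end were held in common by all 14 alpha genes, and another 3 by all 22 gamma genes. These and other overlapping exons made up a median of 53.4% of a gene's merged exon length in the alpha cluster, 44.7% in the gamma cluster and 0% in the beta cluster. Reads from the shared exons cannot be assigned to a gene with certainty, and members within a cluster are close paralogs. The values of single alpha and gamma genes are therefore less certain than those of the cluster as a whole. The symbol Pcdha11 was carried by both ENSMUSG00000007440 and ENSMUSG00000102206, which are kept apart here; RefSeq places Pcdha10 at the position of ENSMUSG00000007440.

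Cyfip2 itself was lower in HET samples, averaging 28834 ± 644 normalized counts there and 44752 ± 1369 in WT samples. Its fold change of -0.63 ± 0.05 (SE) passed the threshold, at an adjusted p of 0.0027 by limma. Without limma's trend in level the adjusted p was 0.146. Over all tested genes, 2 passed the threshold, or 0.0132%, the other being Gm6158, named here after its value was seen. Markers of cortical tissue, listed for neurons in general, excitatory neurons, interneurons and glia, were all detected.

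The bulk of clustered protocadherin expression in this cortex came from the gamma cluster. Per kilobase of merged exon, gamma genes held 61.8 ± 1.68% of the summed level in HET samples and 62.5 ± 1.47% in WT samples. Alpha genes held 19.5 ± 1.17% in HET samples and 19.0 ± 0.971% in WT samples, and beta genes held 18.7 ± 0.917% in HET samples and 18.5 ± 0.989% in WT samples. The shares of the 2 genotypes overlapped for every cluster. In bulk tissue, a change in the number of cells of a type cannot be told apart from a change in RNA per cell. Together the members took 0.103% to 0.108% of all normalized counts.

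The 5 C-type isoforms, the members used more uniformly across neurons, made up 41.4 ± 2.02% of the summed level per kilobase in HET samples and 42.8 ± 1.24% in WT samples. Per kilobase, Pcdhgc5 averaged 963 normalized counts over the 6 samples, Pcdhgc4 734, Pcdhgc3 694 and Pcdhac2 542. These 4 led the order of all members, and the next was the alternate gene Pcdhga11 at 226. Pcdhgc5 stood above Pcdhgc4 in all 6 samples with no overlap of their ranges, whereas the ranges of Pcdhgc4 and Pcdhgc3 overlapped. Pcdhac1, the remaining C-type gene, averaged 70.7 per kilobase and lay among the alternate isoforms. Among all tested genes, Pcdhgc5 stood at percentile 88.5 by level per kilobase and Pcdhac1 at percentile 31.1. In all, 7 members lay above the median tested gene.

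**Figure D1:**
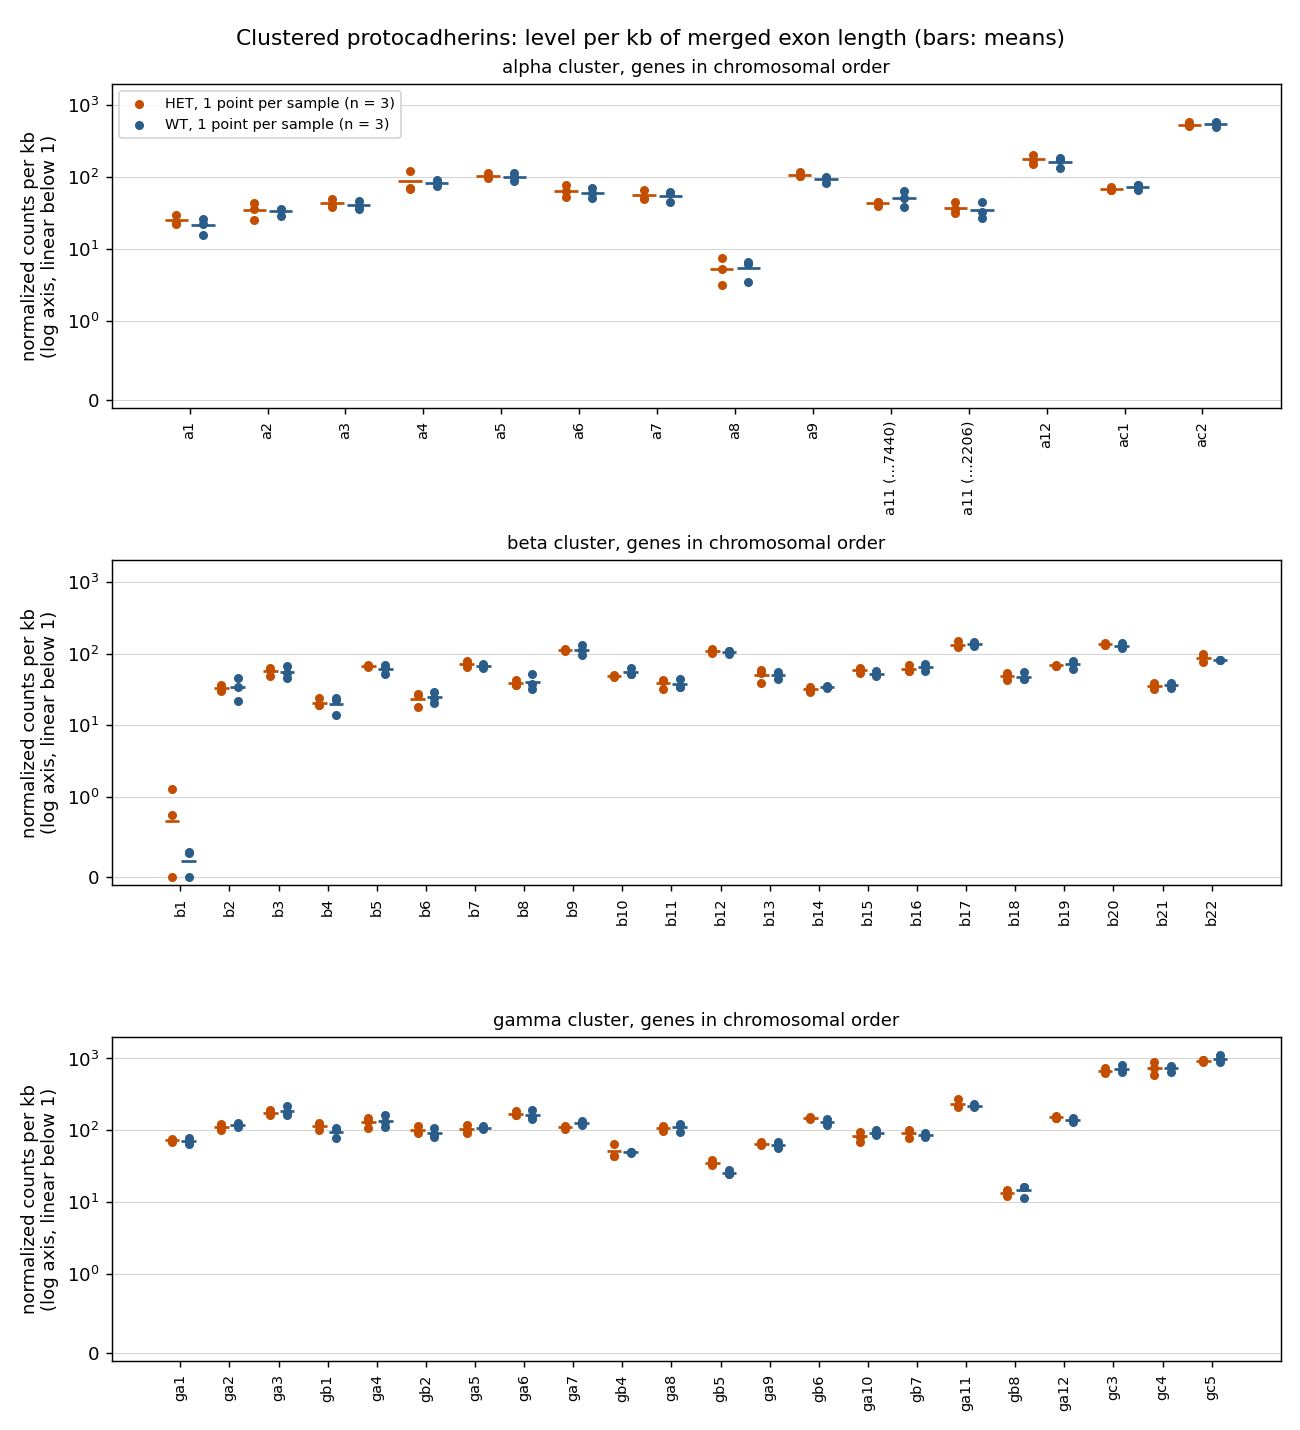
Normalized counts per kilobase of merged exon length (log axis, linear below 1) for the 58 members in chromosomal order, with 1 point per sample and a bar at the mean, HET left of WT. Pcdhac2, Pcdhgc3, Pcdhgc4 and Pcdhgc5 stand above all other members, Pcdha8, Pcdhb1 and Pcdhgb8 lie at the bottom of their clusters, and the points of both genotypes lie together for nearly all genes.

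In the plot of levels by gene, the alternate isoforms of each cluster form a low band with a few genes set below it. The median level per kilobase was 58.8 in the alpha cluster, 53.8 in the beta cluster and 112 in the gamma cluster. Alpha genes ran down to 5.32 for Pcdha8, beta genes from 135.9 for Pcdhb17 down to 0.450 for Pcdhb1, and gamma genes down to 14.0 for Pcdhgb8, which GENCODE annotates as a polymorphic pseudogene. Of the 57 pairs of neighbours in the order of level, 5 had ranges over the 6 samples that did not overlap. A few others kept their order in all 6 samples although their ranges overlapped, as Pcdhga6 did above Pcdhga12. Most neighbours changed places in some samples, so most of the fine order within the band was not resolved. Position along the cluster was only loosely related to level. Spearman's rho between gene order and mean level per kilobase was 0.495 over 14 alpha genes, 0.456 over 22 beta genes and 0.293 over 22 gamma genes, as a description across genes that share libraries and, in 2 clusters, exons. Without the C-type genes, which end their clusters, it was 0.350 over 12 alpha genes and -0.098 over 19 gamma genes. The order of members was similar from sample to sample, with rho between pairs of samples of 0.903 to 0.991 in the alpha cluster, 0.942 to 0.984 in the beta cluster and 0.937 to 0.973 in the gamma cluster.

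Pcdhb1, the first beta gene, was the single member below the filter on low values. It had 2.02, 0 and 3.39 normalized counts in HET samples and 0.773, 0.799 and 0 in WT samples, which is near the value of single reads. The next lowest member, Pcdha8, had 40.2, 27.9 and 16.9 normalized counts in HET samples and 34.6, 18.4 and 32.6 in WT samples. Its genotypes overlapped fully. Pcdhgb8, the lowest gamma gene, had 67.1, 63.9 and 55.7 in HET samples and 75.0, 74.5 and 52.0 in WT samples, again with overlap.

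None of the 57 tested members passed the threshold between genotypes by limma, against a background of 0.0132% of all tested genes. At an unadjusted p under 0.05 there were 2 members, Pcdhgb5 on the higher and Pcdhga7 on the lower side, which is 3.51% against a background of 5.07% of tested genes (2.36% higher and 2.71% lower in HET). The lowest adjusted p among members was 0.727. The fold changes ranged from -0.22 to 0.45 with a median of 0.02, beside a median of 0.00 over all tested genes (0.00197 before rounding), with 32 members above 0 and 25 below. The median member fold change was -0.01 both without HET sample 1 and without WT sample 2, so its sign rested on single samples. For 47 of the 57 members the 95% interval of the fold change lay within 0.5 of 0 on the log2 scale, and the median interval reached 0.27 to either side, against 0.20 over all tested genes. These intervals are not adjusted for the number of genes tested, so a change beyond them could still miss the threshold. Pcdhgb5, with an interval of 0.19 to 0.71, did not pass. The smallest change detectable with 3 samples a genotype was not computed.

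By cluster, the median fold change was 0.05 for the alpha genes, with 10 above 0 and 4 below. It was 0.02 for the beta genes, with 11 above and 10 below, and 0.00 for the gamma genes (0.0028 before rounding), with 11 on each side. With a sample left out, the alpha median ran between -0.01, without HET sample 1, and 0.13, without HET sample 2. The beta median then ran between -0.07, without WT sample 2, and 0.09, without WT sample 3. The gamma median ran between -0.01, without HET sample 3, and 0.03, without WT sample 1, and was also below 0 without HET sample 2 or WT sample 3. None of these signs held in every such fit. Summed normalized counts of the alpha cluster were 7831 ± 512 in HET samples and 7662 ± 607 in WT samples. Those of the beta cluster were 5623 ± 322 in HET samples and 5589.5 ± 436 in WT samples. Those of the gamma cluster were 25404 ± 503 in HET samples and 25805 ± 380 in WT samples. The genotypes overlapped in each of these sums.

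**Figure D2:**
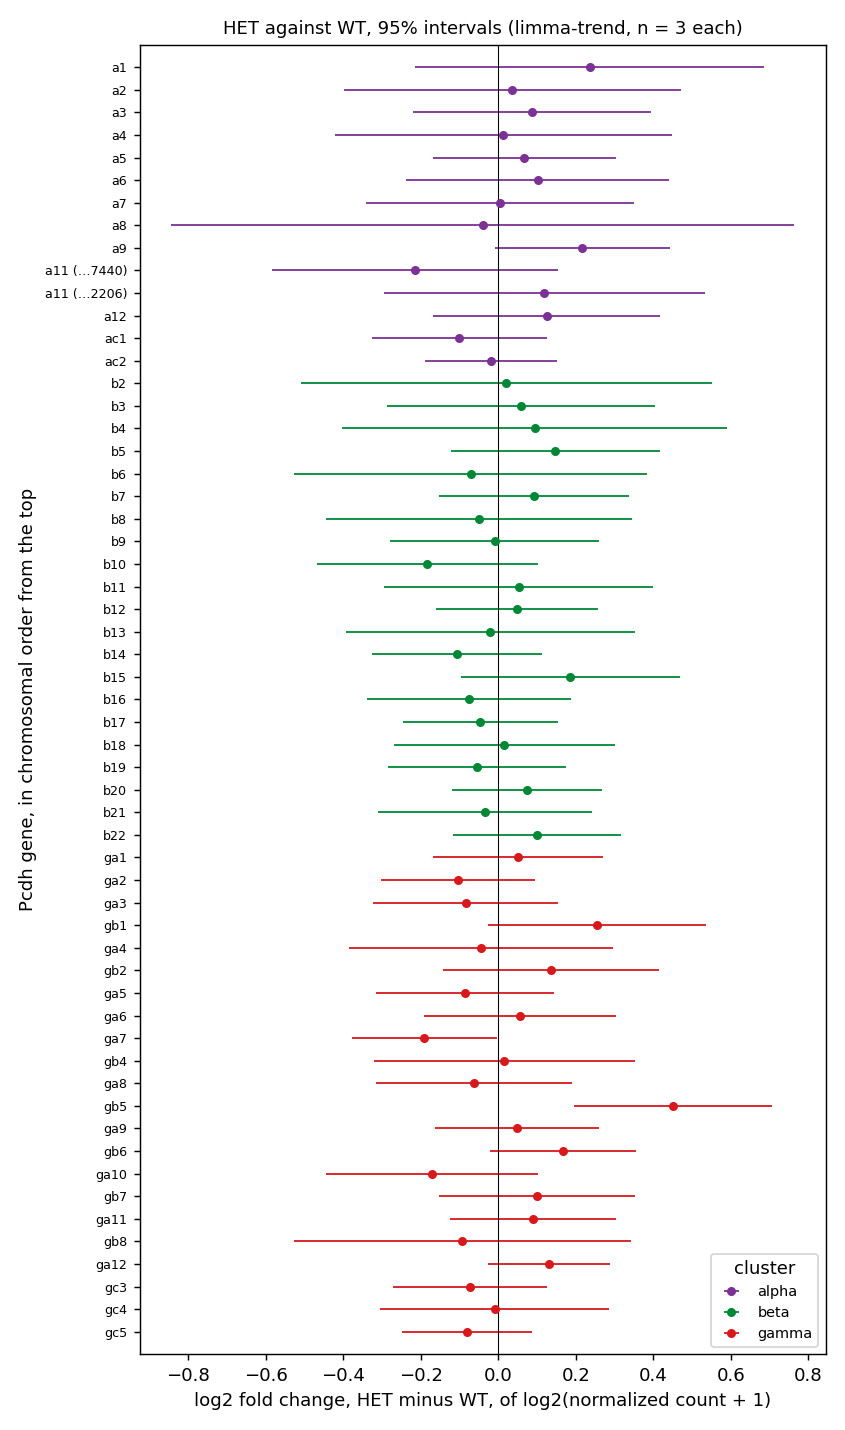
Log2 fold change of each of the 57 tested members, HET minus WT, with its 95% interval by limma (n = 3 samples a genotype), in chromosomal order from the top. The interval of Pcdhgb5 lies wholly above 0 and that of Pcdhga7 just below it, and the other intervals include 0.

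The plot of fold changes shows intervals of very different width. Low genes such as Pcdha8 had an interval of -0.84 to 0.76, whereas that of Pcdhac2 was -0.19 to 0.15. All 5 C-type genes had a fold change below 0, against 49.2% of all tested genes, with a median of -0.07, and each of their intervals included 0. The signs of Pcdhac2, Pcdhgc3 and Pcdhgc4 changed when a sample was left out. For Pcdhgc4 the mean normalized count was not lower, at 4111 in HET samples and 4101 in WT samples.

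Pcdhgc5, whose transcript is the most abundant of the family here, had 7327, 6797 and 7259 normalized counts in HET samples and 8424, 6836 and 7429 in WT samples. The genotypes overlapped, and the high WT value came from WT sample 1. The fold change of -0.08 ± 0.08 (SE) did not pass, at an adjusted p of 0.968 by limma. Pcdhgc4, the isoform that mouse studies link to neuronal survival, had 3310, 4959 and 4063 in HET samples and 3571, 4308 and 4424 in WT samples. HET samples held both its lowest and its highest value, and the fold change was -0.01 ± 0.13. Pcdhgc3, which in mouse cortical neurons promotes dendrite branching, had 3673, 3985 and 3481 in HET samples and 3523, 4484 and 3752 in WT samples. The lowest value was again a HET sample and the highest WT sample 2, with a fold change of -0.07 ± 0.09.

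In the alpha cluster, Pcdhac2, known in mice for the even spacing of serotonergic axons, had 3119, 2986 and 3395 normalized counts in HET samples and 3436, 2894 and 3309 in WT samples. Both ranges covered nearly the same span, and the fold change was -0.02 ± 0.08. Pcdhac1 had 354, 357 and 397 in HET samples and 415, 353 and 423 in WT samples. Here too the ranges overlapped, with WT samples 1 and 3 above all HET samples and WT sample 2 below them, and the fold change was -0.10 ± 0.10. The ratio of Pcdhac2 to Pcdhac1 per kilobase was 8.12, 7.69 and 7.86 in HET samples and 7.62, 7.56 and 7.20 in WT samples. The ratio thus did not overlap between genotypes, by a narrow margin, and was chosen for mention after its values were seen. Summed over the 5 C-type genes, normalized counts were 18487 ± 658 in HET samples and 19194 ± 276 in WT samples, with overlap.

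Outside the C-type genes, the member nearest to a genotype difference was Pcdhgb5, an alternate isoform of the gamma B subfamily. It had 260.1, 221 and 225 normalized counts in HET samples and 186, 165 and 165 in WT samples. The genotypes did not overlap. Its means were 235 ± 21.5 in HET samples and 172 ± 12.04 in WT samples, and the fold change was 0.45 ± 0.11 (SE). The unadjusted p was 0.0029 and the adjusted p 0.727 by limma, so the difference did not pass. Over the 15 alternatives of processing the fold change of Pcdhgb5 was 0.38 to 0.51, and the adjusted p was 0.266 to 1.00. An exact two-sided permutation test over the samples gave 0.1, the smallest p that 3 samples against 3 allow.

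Among members, 4 had genotypes that did not overlap, 7.02% against a background of 10.5% of tested genes (5.15% with HET above and 5.3% with HET below). Pcdhgb5 and Pcdha9 were the ones above WT, and Pcdhga7 and Pcdhb10 the ones below it. Pcdha9, an alternate alpha isoform, had 627, 545 and 559 normalized counts in HET samples and 520.5, 435 and 537 in WT samples. The gap between the lowest HET and the highest WT value was small, and the fold change was 0.22 ± 0.10, with an adjusted p of 0.948 by limma. Pcdhga7, of the gamma A subfamily, had 604, 586 and 543 in HET samples and 659.7, 612 and 709.7 in WT samples. Here the highest HET value lay just under the lowest WT value, with a fold change of -0.19 ± 0.08 and an adjusted p of 0.948 by limma. Pcdhb10 had 144, 138 and 134 in HET samples and 148, 146 and 181 in WT samples. WT sample 3 stood well above the other five, and the fold change was -0.18 ± 0.13.

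**Figure D3:**
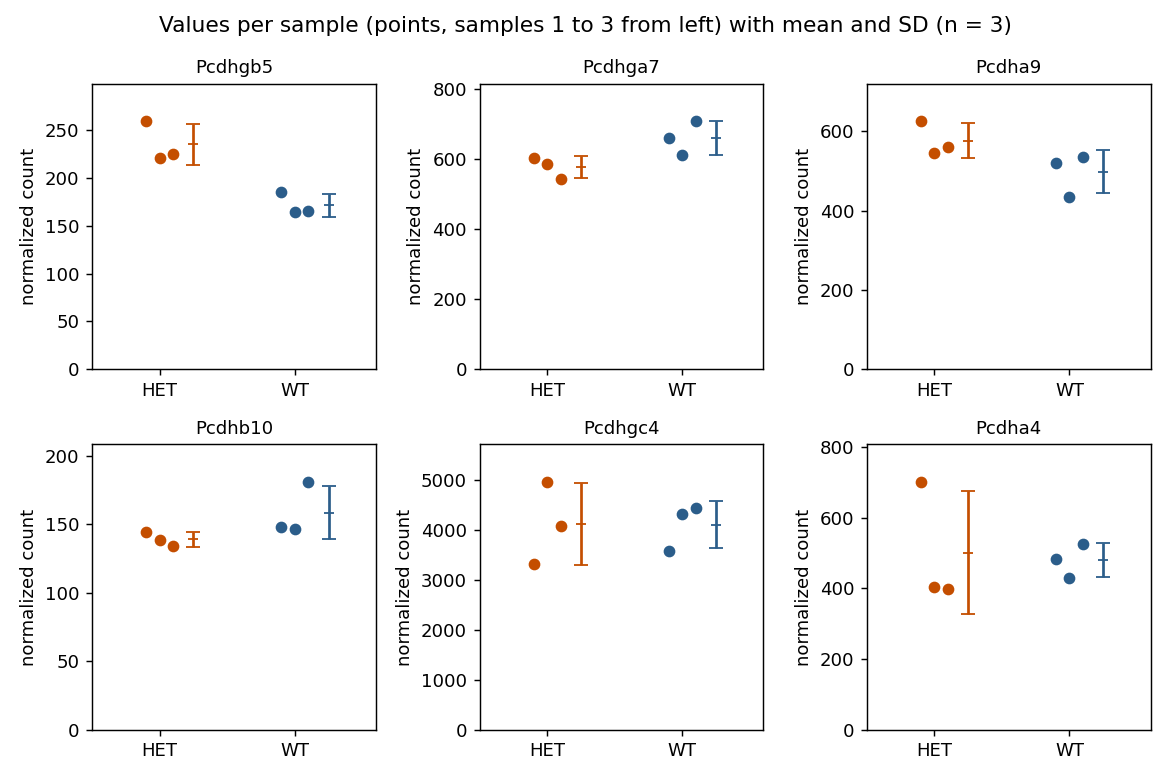
Normalized counts of 6 members in each sample (points, samples 1 to 3 from left), with the mean and SD of 3 samples beside them, HET left of WT. Pcdhgb5, Pcdha9, Pcdhga7 and Pcdhb10 are the members without overlap between genotypes, and Pcdhgc4 and Pcdha4 are the members with the widest spread relative to their level.

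As the plot of single members shows, the gaps between genotypes in Pcdha9, Pcdhga7 and Pcdhb10 were narrower than the spread within a genotype. Next on the higher side came Pcdhgb1, with 731, 579.9 and 663 normalized counts in HET samples and 457, 618 and 585 in WT samples. Its genotypes overlapped through HET sample 2, and the fold change was 0.25 ± 0.13. Next on the lower side came Pcdhga10, with 329, 384 and 453 in HET samples and 399.6, 473 and 432 in WT samples. Again the genotypes overlapped, with a fold change of -0.17 ± 0.12.

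Within the gamma cluster the A and B subfamilies, which alternate along the chromosome, had different medians. Of the 7 gamma B genes 6 had a fold change above 0, with a median of 0.14, and of the 12 gamma A genes 5 did, with a median of -0.05. Over all tested genes 7701 lay above 0 and 7450 below. Summed over the gamma B genes, normalized counts were 3008, 2851 and 2739 in HET samples and 2526, 2646 and 2469 in WT samples. The genotypes did not overlap, and the HET mean was 113% of the WT mean. Singly, 1 of the 7 genes, Pcdhgb5, did not overlap, or 14.3% against 10.5% of tested genes. No such background was computed for sums. Summed over the gamma A genes, they were 7583, 7314 and 7864 in HET samples and 8082, 7111 and 7828 in WT samples, with full overlap. Pcdhgb6, the most abundant gamma B gene, had 669.9, 695 and 709.8 in HET samples and 616, 675 and 561 in WT samples. WT sample 2 lay inside the HET range, and the fold change was 0.17 ± 0.08, with an adjusted p of 0.950 by limma. The grouping by subfamily was looked at after the values were seen and is a description without a test.

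The alternate isoforms with the highest normalized counts, not divided by length, showed no difference past the threshold. Per kilobase the order differs: Pcdhb20, Pcdhb9 and Pcdhb12 then follow Pcdhb17 in the beta cluster, and Pcdhga6 precedes Pcdhga12 in the gamma cluster. In the alpha cluster, Pcdha12 had 820.3, 921 and 1080.2 normalized counts in HET samples and 968, 707 and 918 in WT samples. Pcdha5 had 544, 505 and 589 in HET samples and 525, 587 and 457 in WT samples. Both overlapped between genotypes, with fold changes of 0.13 ± 0.13 for Pcdha12 and 0.07 ± 0.11 for Pcdha5.

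In the beta cluster, Pcdhb17 had 691, 599 and 581 normalized counts in HET samples and 645, 603 and 681 in WT samples. Pcdhb22, the last gene of the cluster, had 647, 592 and 506 in HET samples and 541, 532 and 547 in WT samples. Pcdhb19 had 502, 486 and 475 in HET samples and 529, 436 and 564 in WT samples. All 3 overlapped, and their fold changes were -0.05 ± 0.09 for Pcdhb17, 0.10 ± 0.10 for Pcdhb22 and -0.06 ± 0.10 for Pcdhb19.

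In the gamma cluster, Pcdhga11 had 1009, 1034 and 1288 normalized counts in HET samples and 1003, 1019 and 1092 in WT samples. Pcdhga12 had 999.9, 975 and 1041 in HET samples and 975, 867 and 913 in WT samples. Pcdhga3 had 813, 767 and 906 in HET samples and 1023, 778 and 845 in WT samples. Pcdhga12 came closest to separation, since its highest WT value barely exceeded its lowest HET value. The fold changes were 0.09 ± 0.10 for Pcdhga11, 0.13 ± 0.07 for Pcdhga12 and -0.08 ± 0.11 for Pcdhga3.

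Clustered protocadherins had a higher median spread between samples of a genotype than tested genes of their level. The residual SD of each gene, on the log2 scale, was divided by the SD that limma's trend gives at the gene's level. The median of this ratio was 1.33 over the 57 members and 0.966 over all tested genes, and it was above 1 in 70.2% of members and 47.2% of all tested genes. It was highest in the alpha cluster, with a median of 1.74 and 13 of 14 genes above 1. The beta median was 1.17 with 13 of 21 above 1, the gamma median 1.49 with 14 of 22, and the C-type median 1.61 with 4 of 5. The trait was not particular to the clusters: the 27 classical cadherins, catenins and other recognition molecules had a median ratio of 1.42, with 70.4% above 1. These are descriptions: members of a cluster share exons and libraries and are not independent.

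**Figure D4:**
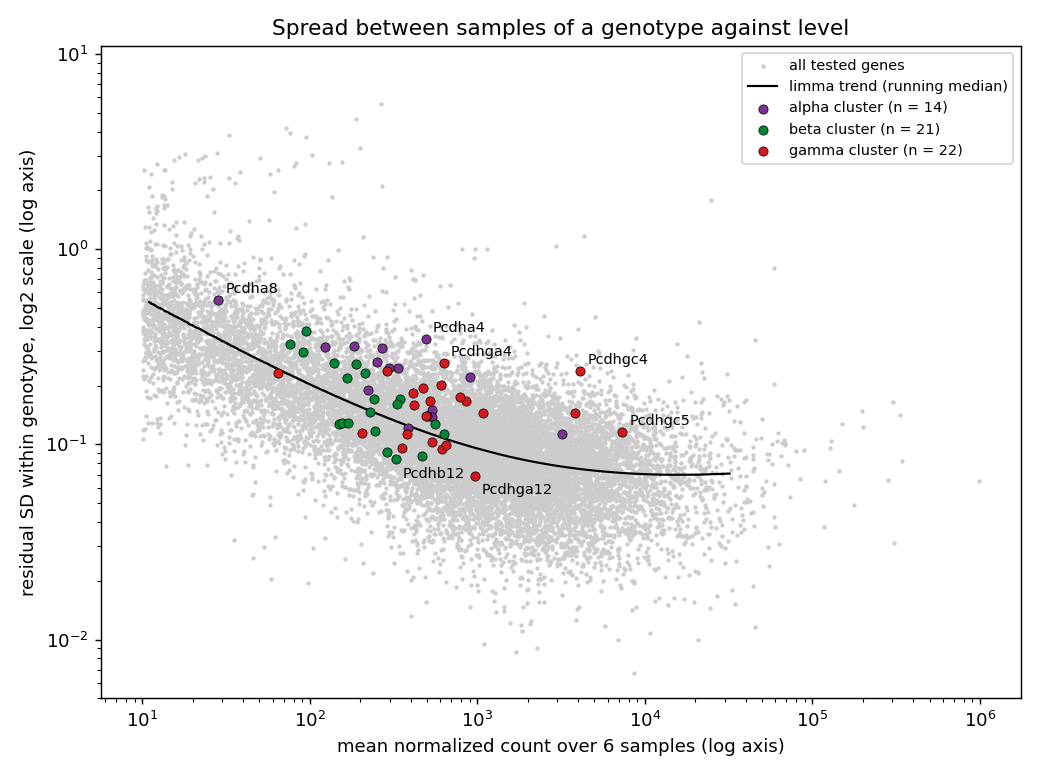
Residual SD between samples of a genotype (log2 scale, log axis) against mean normalized count (log axis) for all 15151 tested genes in grey and the members by cluster, with limma's trend as a line. Pcdhgc4, Pcdha4 and Pcdhga4 lie farthest above the trend among members, and Pcdhb12 and Pcdhga12 lie below it.

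In the plot of spread against level, Pcdhgc4 had the highest ratio of all members, 3.18, although it is among the most abundant. Pcdha4 followed with 2.98, from 703, 403 and 398 normalized counts in HET samples and 484, 430.4 and 526 in WT samples. Its spread came from HET sample 1, which stood above all others. Pcdhga4 had a ratio of 2.43, from 707, 509 and 637 in HET samples and 779, 531 and 608 in WT samples, with sample 1 highest in each genotype.

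At the other end, Pcdhb12 had a ratio of 0.636, from 327, 311 and 355 normalized counts in HET samples and 326, 331 and 303 in WT samples. Pcdhb14 had a ratio of 0.664, from 302, 275 and 254 in HET samples and 296, 292 and 304 in WT samples. Both are beta genes without shared exons. Pcdhga12, described above, had a ratio of 0.719. The residual SD of every tested member exceeded the SD that counting error alone would give at the read depth read off the low values. This was so for 85.8% of all tested genes. In the median the residual SD was 2.15 times the counting SD in members, against 1.90 times over all tested genes. That depth is an estimate, and the counting SD leaves out the uncertain assignment of reads from shared exons.

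Genes of the alpha and beta clusters tended to deviate in 1 direction in some samples, and gamma genes did so little. In the alpha cluster 11 of 14 genes lay below their own mean in WT sample 2 and 10 of 14 in HET sample 2. Averaged over the 14 alpha genes, the log2 deviation from each gene's mean over the 6 samples was 0.17, -0.09 and -0.01 in HET samples 1 to 3 and 0.12, -0.15 and -0.03 in WT samples 1 to 3. Over the 21 tested beta genes it was 0.09, -0.02 and -0.05 in HET samples and 0.01, -0.15 and 0.12 in WT samples. For the 22 gamma genes the average deviations lay between -0.04 and 0.03. WT sample 2 was thus the lowest in both the alpha and beta clusters, HET sample 1 was the highest in the alpha cluster and WT sample 3 the highest in the beta cluster.

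**Figure D5:**
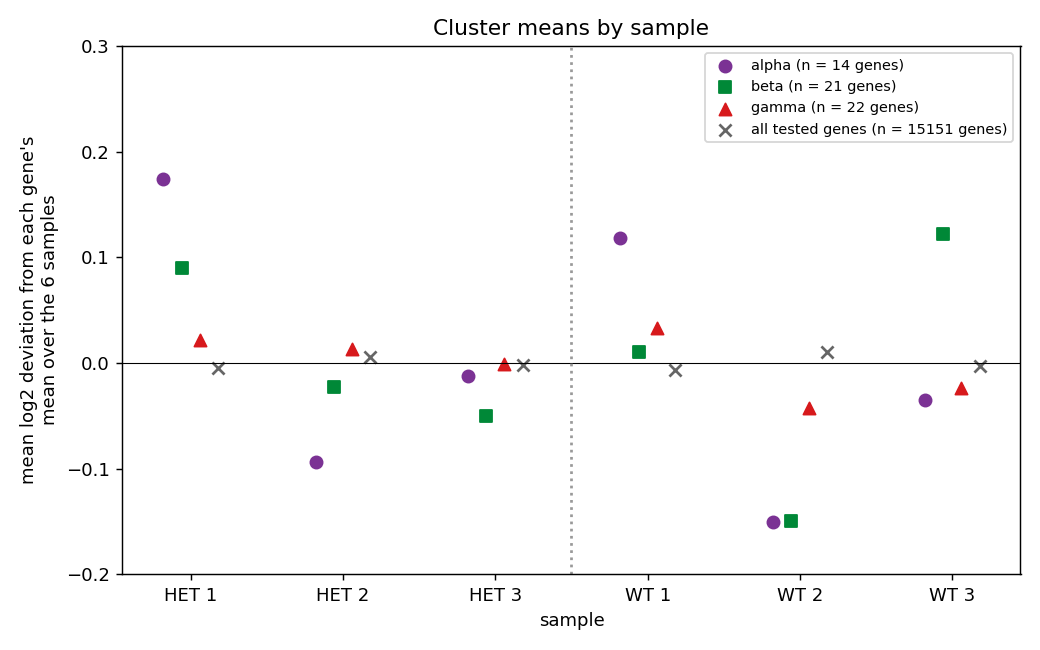
Mean log2 deviation of each cluster's genes from their own mean over the 6 samples, by sample, HET left of WT, with all tested genes as crosses. Alpha and beta genes lie at -0.15 in WT sample 2, while gamma genes and all tested genes stay near 0 in every sample.

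Gene by gene, as the plot of cluster means by sample shows in sum, WT sample 2 held the lowest value of 40.4% of the 57 members, against 18.2% of all tested genes. HET sample 1 held the highest value of 28.1% of members, against 19.3% of all tested genes. Summed over 9 oligodendrocyte markers, the level per kilobase was 20703 to 22398 in HET samples, and 22736, 29405 and 21225 in WT samples 1 to 3, so WT sample 2 stood highest there. The part of this in the low alpha and beta values was not tested.

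Of the 13 marker lists for cell types, 4 had summed levels that did not overlap between genotypes, although no single marker passed the threshold. Among single tested genes 10.5% did not overlap, and no such background was computed for sums, which the most abundant markers dominate. The 8 general neuron markers, 6 of them lower, gave overlapping sums of 48619 to 50788 in HET samples and 49148 to 53147 in WT samples. Summed per kilobase, the 7 excitatory neuron markers gave 60332 to 63263 in HET samples and 67676 to 71417 in WT samples, with 5 of 7 lower and no overlap of the sums. The 9 interneuron markers gave 19402 to 19857 in HET samples and 17720 to 18855 in WT samples, with 8 of 9 higher, again with no overlap. The 8 striatal projection neuron markers, 5 of them lower, gave 1993 to 2199 in HET samples and 2382 to 2649 in WT samples. The 8 markers of meninges and fibroblasts, 7 of them higher, gave 771 to 846 in HET samples and 669 to 748 in WT samples. Both sums were without overlap, but log2 deviations averaged with equal weight per gene overlapped in both lists. For striatal markers these averages were -0.15 to 0.04 in HET samples and -0.14 to 0.33 in WT samples. For markers of meninges and fibroblasts they were 0.01 to 0.11 in HET samples and -0.17 to 0.02 in WT samples. Astrocyte markers, 7 of 8 higher, gave overlapping sums of 23874 to 27576 in HET samples and 23208 to 26926 in WT samples. All 9 oligodendrocyte markers had lower means in HET samples, and their sums overlapped. Their average log2 deviation was 0.34 in WT sample 2, but -0.02 and -0.10 in WT samples 1 and 3. In HET samples 1 to 3 it was -0.04, -0.04 and -0.14. No listed marker of these types was at 0 in all samples. The part of cell makeup in the values of single members was not tested.

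The regulators of the clusters were measured in the same fit, from a list of 25 genes for looping and chromatin. None passed the threshold in either direction, with 16 above 0, 9 below and a median fold change of 0.03. Ctcf, the insulator protein that loops enhancers to protocadherin promoters, averaged 2209 ± 86.0 normalized counts in HET samples and 2212 ± 59.7 in WT samples. The cohesin subunit Rad21 averaged 3476 ± 129 in HET samples and 3492 ± 56.6 in WT samples, and Smchd1, a chromatin protein that represses the clusters in mice, 1561 ± 116 in HET samples and 1426 ± 104 in WT samples. The smallest unadjusted p was that of Hnrnpu, a nuclear RNA-binding protein, at 0.033, with a fold change of 0.16 ± 0.06 and an adjusted p of 0.948 by limma. Uhrf1, a reader of methylated DNA, was low, with 51.6, 21.8 and 29.5 in HET samples and 13.7, 24.5 and 24.7 in WT samples, and overlapped.

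The intracellular partners, 27 genes for kinases, proteases and the WAVE complex, likewise had none past the threshold, with 9 above 0, 18 below and a median of -0.02. Cyfip1, the paralog of Cyfip2, averaged 3207 ± 135 normalized counts in HET samples and 3176 ± 170 in WT samples. Wasf1, the main neuronal WAVE protein, averaged 6684 ± 249 in HET samples and 6805 ± 565 in WT samples, and Nckap1, which binds Cyfip proteins in the complex, 21108 ± 970 in HET samples and 20876 ± 1481 in WT samples. All 3 overlapped. Ptk2b, the focal adhesion kinase family member that clustered protocadherins inhibit, had 14183, 14836 and 14582 in HET samples and 16059.7, 15212 and 15835 in WT samples. The genotypes did not overlap, and the fold change was -0.11 ± 0.05, with an adjusted p of 0.948 by limma. Ret, a receptor kinase found with alpha and gamma protocadherins, had 132, 133 and 127 in HET samples and 116, 113 and 118 in WT samples, without overlap and with a fold change of 0.17 ± 0.12. Of the 27 partners, 3 did not overlap, 1 above WT and 2 below, or 11.1% against 10.5% of tested genes.

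The non-clustered protocadherins, relatives encoded elsewhere in the genome, numbered 12. None passed the threshold by limma, with 7 above 0, 5 below and a median of 0.02. Pcdh11x had 751, 681 and 689 normalized counts in HET samples and 601, 541 and 582 in WT samples, a fold change of 0.30 ± 0.08 with an adjusted p of 0.736. Pcdh8, induced by neuronal activity in rats, had 825, 792 and 744 in HET samples and 684, 577 and 647 in WT samples, a fold change of 0.31 ± 0.09 with an adjusted p of 0.741. Neither gene overlapped between genotypes. With Pcdh17, which averaged 1971 ± 84.3 in HET samples and 1775 ± 61.8 in WT samples, these made 3 of 12 with an unadjusted p under 0.05, against 5.07% of all tested genes. Pcdh1 was lower, at 8803 ± 363 in HET samples and 9603 ± 529 in WT samples, without overlap. In all, 4 of 12 did not overlap, 3 above WT and 1 below, or 33.3% against 10.5% of tested genes.

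Classical cadherins, catenins and other recognition molecules, 27 genes, had none past the threshold, with 17 above 0, 10 below and a median of 0.02. Cdh13, a membrane-anchored cadherin, had 1758, 1582 and 1628 normalized counts in HET samples and 1529, 1467 and 1247 in WT samples, with a fold change of 0.23 ± 0.08. Sdk1, an immunoglobulin-type adhesion protein, had 411, 368 and 366 in HET samples and 493, 425 and 426 in WT samples, with a fold change of -0.23 ± 0.10. Neither overlapped between genotypes, and neither had an adjusted p under 0.9 by limma. Of the 27 genes, 3 did not overlap, 2 above WT and 1 below, or 11.1% against 10.5% of tested genes.

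Genes that flank the clusters on chromosome 18 gave a local comparison. Of 24 measured, 23 were tested and none passed, with 13 above 0, 10 below and a median of 0.01. Taf7, which lies between the beta and gamma clusters, had 272, 247 and 240.1 normalized counts in HET samples and 234, 252 and 237 in WT samples, with overlap. Diaph1, a formin beyond the gamma cluster, had 2066, 2196 and 2129 in HET samples and 2237, 2276 and 2730.2 in WT samples. Its genotypes did not overlap, WT sample 3 stood apart, and the fold change was -0.18 ± 0.08, with an adjusted p of 0.948 by limma. Rell2 averaged 4804 ± 330 in HET samples and 5319 ± 443 in WT samples, with overlap and a fold change of -0.15 ± 0.07. Of the 23 tested flanking genes, 4 did not overlap, 3 above WT and 1 below, or 17.4% against 10.5% of tested genes.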

How the data were processed

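The deposited table held a signal per gene, which the authors' label and its values mark as normalized counts of the kind DESeq2 gives. The submitters' processing notes name Salmon 0.11.2, R 3.6.0, DESeq2 1.19.11 and GRCm38, with no role or order. Libraries were stranded mRNA libraries per the labels' protocols. Of 18160 identifiers 18122 matched a symbol. The values were not whole reads, so no count model was run. Steps among low values implied 27153000 to 48085000 reads per sample, WT sample 3 lowest. Of values up to 2 implied reads, 78.0% to 84.5% per sample lay within 0.1 of a whole read. At 10 to 20 implied reads only 21.1% to 43.4% did, so the implied depths and counting errors rest on the lowest values. Values of replicates differed beyond counting error.

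limma 3.58.1 (R 4.3.3) was fitted with a trend and genotype as the only term to log2(value + 1) of genes with a mean of at least 10. The code was also run on simulated counts with the same dispersion for every gene. Spread differs between genes in these data, so that run is no support for the p-values. The pseudocount understates changes of low genes. Levels per kilobase used merged exon lengths of GENCODE M21. The members and gene lists were chosen with earlier results of these data known. Named genes were Cyfip2, the C-type isoforms, the 3 most abundant others, and the lowest, of each cluster, the 3 smallest p per direction, the 3 highest and lowest spreads, and the 2 smallest p per related list. Genes named beyond that rule, chosen after their values were seen, were Pcdhgb6, Pcdhga6, Pcdhb9, Pcdhb20, Ctcf, Rad21, Smchd1, Cyfip1, Wasf1, Nckap1, Pcdh1, Pcdh17, Taf7, Gm6158, Gm37388, Slc25a2 and Gm20162. The sample numbers were not treated as pairs in the main fit. Alternatives were other scalings, filters, pseudocounts and limma settings, and leaving out each sample.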

Additional observations from a re-analysis of the deposited data

How the results depend on the processing

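Each test was repeated under 15 alternatives: other scalings, filters, pseudocounts and limma settings, a replicate block, and leaving out each sample. No tested member passed the threshold under any of them, with 1 to 4 members at an unadjusted p under 0.05. Over all tested genes 2 passed, against 1 with a mean of at least 50 or without HET sample 1, and 4 without HET sample 3 or WT sample 1. Without the trend 1 passed, and Cyfip2 was lost, at -0.63 with an adjusted p of 0.146. None of the 35 named genes other than Cyfip2 with a fold change passed under any alternative. Deviations of genes from their genotype mean had correlations of 0.10, 0.162 and -0.075 between same-numbered HET and WT samples. Between differently numbered ones they were -0.249 to 0.144. So few pairs cannot settle whether the numbers pair the samples. With the replicate block 0 members passed, the lowest adjusted p was 0.266 and the Cyfip2 fold change was -0.63, while the share of all tested genes at an unadjusted p under 0.05 was 8.996% against 5.07%.

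The median spread ratio of members was 1.64 without the trend and 1.21 to 1.43 with a sample left out. Undivided by length, the beta cluster held 14.4% and the gamma cluster 65.7% of summed counts. Per kilobase of the longest transcript, shares were 17.9% alpha, 17.02% beta and 65.1% gamma. Without C-type genes, beta held 32.1% and gamma 49.5%.

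The fold changes of 13 named members had no stable sign when a sample was left out. Their lowest and highest values were -0.093 and 0.031 for Pcdhac2, -0.15 and 0.028 for Pcdhgc3, -0.15 and 0.14 for Pcdhgc4, -0.013 and 0.22 for Pcdha12, -0.026 and 0.15 for Pcdha5, and -0.33 and 0.28 for Pcdha8. They were -0.12 and 0.0031 for Pcdhb17, -0.16 and 0.022 for Pcdhb19, -0.023 and 0.15 for Pcdhga11, -0.17 and 0.027 for Pcdhga3, -0.0035 and 0.092 for Pcdhb12, and -0.17 and 0.11 for Pcdhga4. For Pcdha4 they were -0.26, without HET sample 1, and 0.15. The cause of these shifts was not tested. For the low member Pcdha8, the estimated SD from counting error alone was 0.29 on the log2 scale, beside a residual SD of 0.55. For the abundant Pcdhgc4 these were 0.023 and 0.24.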

Other observations

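Of the annotated genes between the ends of the clusters that are not members, 8 had values in the table, and apart from Taf7 their normalized counts were low. The rest were not analysed here. The readthrough gene Gm37388, which spans the alpha to gamma clusters, had 0, 2.07 and 0 normalized counts in HET samples and 0, 3.20 and 0 in WT samples. Slc25a2, between the beta and gamma clusters, had 1.02, 3.11 and 2.27 in HET samples and 5.41, 3.19 and 2.71 in WT samples. The pseudogene Gm20162 in the beta cluster had 11.1, 6.23 and 5.72 in HET samples and 4.71, 6.35 and 6.69 in WT samples, so its genotypes overlapped.

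The balance between the abundant gamma C-type isoforms differed from sample to sample. The ratio of Pcdhgc5 to Pcdhgc3 per kilobase was 1.44, 1.23 and 1.504 in HET samples and 1.72, 1.10 and 1.43 in WT samples. WT samples 1 and 2 held its highest and lowest values.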
